A study of Mus musculus with 13 samples.

Results

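The genes described here encode the nuclear-encoded subunits of the mitochondrial respiratory chain and the ATP synthase. They were chosen by gene symbol alone, as all genes of the probe annotation whose symbol begins with Nduf followed by a, b, c, s or v, is Sdha, Sdhb, Sdhc or Sdhd, or begins with Uqcr, Cox4 to Cox8 or Atp5. This gave 88 of the 18820 genes on the array, namely 36 subunits and 7 Ndufaf assembly factors of complex I, 4 subunits of complex II, 7 of complex III, 17 of complex IV and 17 of complex V. Of these, 65 genes had 1 array feature and 23 had several, of which the feature with the highest mean over all livers was used.

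Complexes I, III and IV pump protons across the inner mitochondrial membrane while passing electrons from NADH to oxygen, complex II feeds in electrons from succinate, and complex V, the ATP synthase, uses the proton gradient to make ATP. Hepatocytes are rich in mitochondria, and the chain supports their gluconeogenesis, urea synthesis and fatty acid oxidation. Each complex joins subunits encoded in the nucleus, which include those described here, to subunits encoded by mitochondrial DNA, except complex II, whose subunits are all nuclear-encoded. The mitochondrially encoded subunits were not analysed here.

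The series measured liver RNA of C57BL/6J mice on Affymetrix whole-transcript arrays, 1 array per liver and 13 livers in all. Wildtype livers were taken at 3 weeks (n = 3) and 9 weeks (n = 3), and Sel1L-deficient livers at 3 weeks (n = 4) and 9 weeks (n = 3), all after a morning fast of 5 to 6 hours. The Sel1L-deficient mice carried Sel1l alleles with loxP sites around exon 6 together with Cre recombinase under the albumin promoter. This design directs the deletion to hepatocytes and not to other liver cells. How complete it was in hepatocytes cannot be read from whole-liver RNA. Sel1L is the partner of the ubiquitin ligase Hrd1 in the degradation of misfolded proteins of the endoplasmic reticulum. The labels do not give the sex of the mice, or whether the wildtype mice carried the floxed allele or Cre.

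Values are RMA log2 expression, and a log2 difference is the mean of one group minus that of another. RMA aligns the arrays, so a shift shared by most genes would have been largely removed, and array medians lay between 3.72 and 3.81. Sel1l stood between 8.70 and 8.94 in the wildtype livers and between 7.10 and 8.42 in the Sel1L-deficient ones, without overlap at either age. Sel1L-deficient replicate 1 at 3 weeks was the one nearest to wildtype. The hepatocyte marker list (8 genes such as Alb and Ttr) had a mean level between 12.32 and 12.57 in every liver, far above the array medians. The skeletal or cardiac muscle list and the fat list averaged between 2.59 and 3.19, below the array medians. The 5 member genes Ndufaf5, Cox4i2, Cox7b2, Cox8b and Cox8c also lay below the array medians, where a difference understates any change of the RNA.

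The main pattern was a small, broad difference at 9 weeks. Sel1L-deficient livers had lower values than wildtype livers for 78 of the 88 genes, with a median log2 difference of -0.18, while 51.8% of all genes lay lower and the median of all genes was -0.01. Expressed as a percentage, the members' median fell by 11.6%. At 3 weeks the median over the members was -0.01, and 48 of 88 lay lower, against 50.6% of all genes. The Sel1L-deficient groups thus had near-equal numbers of genes above and below wildtype at 3 weeks, and most genes below at 9 weeks.

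**Figure D1:**
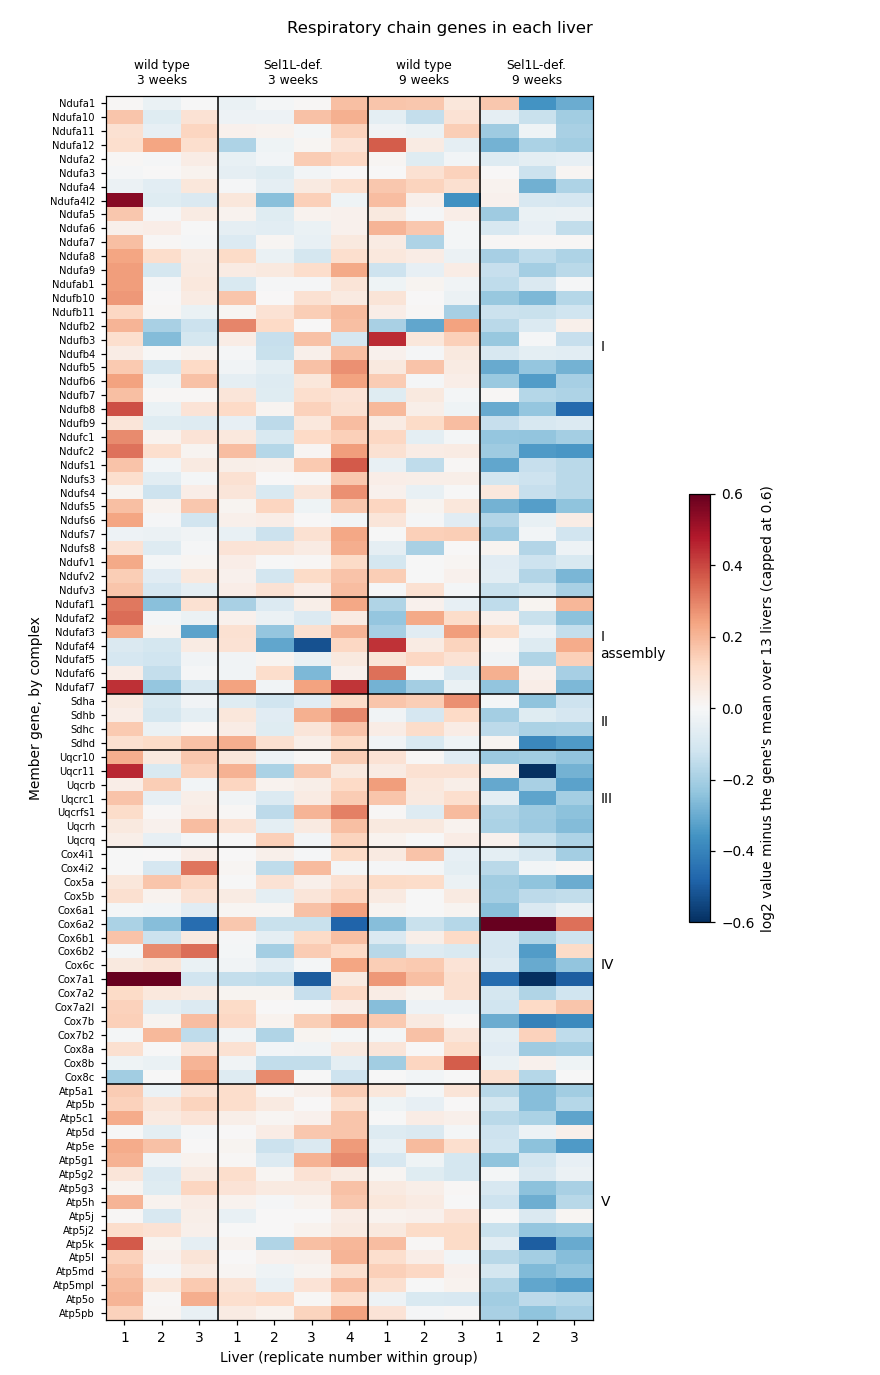
Heat map of the 88 genes (rows, by complex) in the 13 livers (columns, by group and replicate number), coloured by the log2 value minus the gene's mean over all livers, with colours capped at 0.6. The 3 Sel1L-deficient livers at 9 weeks are mostly blue (lower), with Cox6a2 as the red row among them, and the other 3 groups show no such block.

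Liver by liver, the same was seen in each Sel1L-deficient animal at 9 weeks. Replicates 1, 2 and 3 had 74, 79 and 72 of the 88 genes below the wildtype mean of that age, and the median deviations from that mean were -0.16, -0.21 and -0.21. The wildtype livers at 9 weeks had 38, 51 and 45 genes below their own mean, with median deviations of 0.02, -0.01 and -0.00. No Sel1L-deficient liver at 9 weeks reached any wildtype liver of that age on this measure.

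The 3-week livers spread more widely within each genotype. The 4 Sel1L-deficient livers had 57, 72, 49 and 25 genes below the wildtype mean, and their median deviations ran from -0.09 to 0.08. The 3 wildtype livers ran from -0.07 to 0.08, so both genotypes covered the same range.

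Few single genes passed the test across the whole array (limma, Benjamini-Hochberg over 35556 features). At 9 weeks 3 of the 88 genes fell, Cox7b, Uqcrb and Atp5j2, against 0.67% of all genes called lower. Cox6a2 alone rose, against 1.37% of all genes called higher. At an unadjusted p under 0.05, 42 of the 88 lay lower, against 6.85% of all genes. Groups did not overlap, with every Sel1L-deficient liver below every wildtype liver, for 52 of the 88 genes, against 9.34% of all genes, and lay higher without overlap for 1 (Cox6a2), against 11.4%.

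Most members have high values, so shares were also taken among such genes. Among the 3519 genes with a mean above 7, 18.1% were lower without overlap at 9 weeks, against 48 of the 69 members in that range. The median over those 69 genes was -0.21, and over all 3519 genes it was 0.00. The number of calls depended on the livers fitted. Leaving out any wildtype liver of 9 weeks, or Sel1L-deficient replicate 2 or 3 of that age, left 0 members called, and leaving out a 3-week liver left 1 to 3. Fitting the 6 livers of 9 weeks alone left 0, and plate column as a block left 2, Cox7b and Cox6a2. The median over the members stayed between -0.19 and -0.18 with any of the 13 livers left out. Fewer cells of a type and less RNA per cell cannot be told apart in whole liver.

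At 3 weeks limma called 0 of the 88 genes, lower or higher, and it called 0% of all genes in either direction. At an unadjusted p under 0.05, 1 gene lay lower (Cox7a1), against 3.93% of all genes. Ndufa12 was lower without overlap, 1 of 88 against 3.79% of all genes, and Cox6a1 and Atp5d were higher without overlap, 2 of 88 against 3.67%.

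The change in the genotype difference between ages was tested as an interaction. Its median over the members was -0.18, with 78 of 88 below 0, against 50.2% of all genes. No member passed (limma, 0 of 88; 0% of all genes called lower), and 22 had an unadjusted p under 0.05 and a value below 0, against 4.77%. The difference between the ages was therefore not shown for any single gene.

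**Figure D2:**
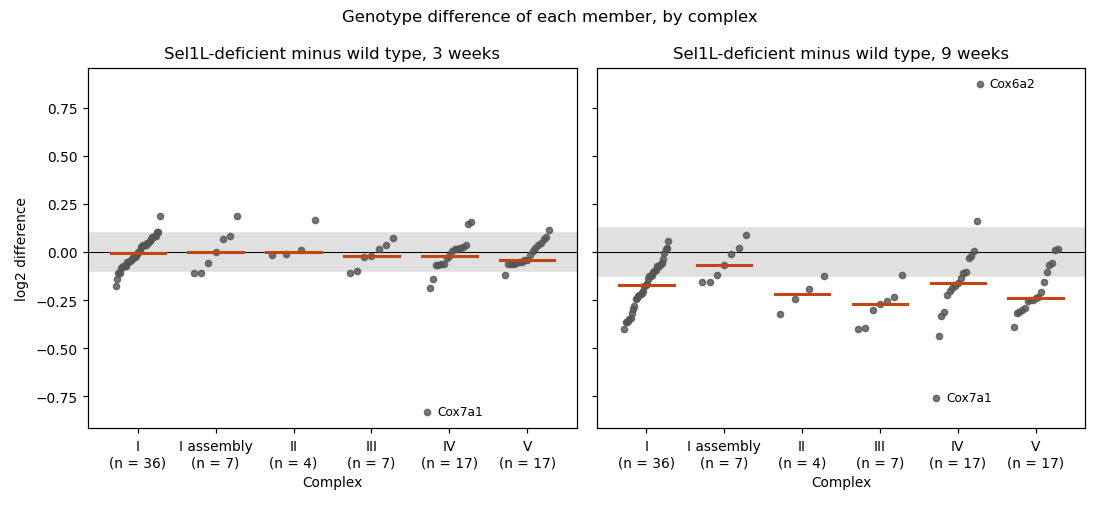
Log2 difference between Sel1L-deficient and wildtype livers for each gene (points) at 3 weeks (left) and 9 weeks (right) by complex, with the complex median as a bar and the interquartile range of all genes in grey. The medians sit near 0 at 3 weeks, and at 9 weeks those of complexes I to V lie between -0.27 and -0.16, with Cox6a2 and Cox7a1 far from the rest of complex IV.

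Promoter windows were searched because most of these genes lay lower together at 9 weeks. RefSeq (GRCm38.p6) windows of 300 bases, 250 before and 50 after the start, were at hand for 73 of the 88 genes, and motifs were counted on both strands. The NRF1 motif GCGCANGCG occurred in 22 of the 73 (30.1%), against 10.7% of the array's genes with a window and 7.03% of all genes with one. The ETS motif CCGGAAG occurred in 18 (24.7% against 13.7%), YY1 AAGATGGC in 10 (13.7% against 3.83%), ERR TCAAGGTCA in 2 (2.74% against 0.339%), CCAAT in 32 (43.8% against 41.9%) and TATAAA in 8 (11.0% against 13.8%). NRF1, GABP and YY1 are known regulators of respiratory genes, and a match describes letters, not binding.

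Medians at 9 weeks for genes with and without a motif are given with no test. The median log2 difference was -0.21 over the 22 genes with NRF1 and -0.17 over the 51 without. For the ETS motif the medians were -0.21 and -0.18, for YY1 -0.17 and -0.19, and for CCAAT -0.19 and -0.19. For TATAAA they were -0.11 over 8 genes with it and -0.19 over 65 without, and for ERR -0.20 over 2 and -0.18 over 71.

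Windows of 2 genes that fell, Cox7b (chrX:106015450-106015749, plus strand) and Atp5j2 (chr5:145191492-145191791, minus strand), are given with that of Cox6a1 (chr5:115348909-115349208, minus strand), which did not pass at either age and holds several motifs. Capitals mark motif matches. In Cox7b they are 2 CCAAT boxes and in Atp5j2 a reverse CCAAT box and a YY1 motif. In Cox6a1 they are a stretch where an NRF1 match on each strand overlaps, a further NRF1 match, a CCAAT box and a reverse ETS motif.
Cox7b: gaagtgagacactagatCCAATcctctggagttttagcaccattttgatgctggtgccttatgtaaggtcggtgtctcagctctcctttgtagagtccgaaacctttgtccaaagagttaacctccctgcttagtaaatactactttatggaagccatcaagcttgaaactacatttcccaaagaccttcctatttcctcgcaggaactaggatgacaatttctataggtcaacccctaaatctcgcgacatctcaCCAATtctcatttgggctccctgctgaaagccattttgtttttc
Atp5j2: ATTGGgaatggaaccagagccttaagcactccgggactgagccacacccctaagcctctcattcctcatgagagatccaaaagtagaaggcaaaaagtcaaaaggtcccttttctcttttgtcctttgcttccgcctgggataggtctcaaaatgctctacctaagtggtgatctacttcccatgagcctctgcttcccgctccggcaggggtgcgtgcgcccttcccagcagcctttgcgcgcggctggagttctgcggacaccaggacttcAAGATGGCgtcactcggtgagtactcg
Cox6a1: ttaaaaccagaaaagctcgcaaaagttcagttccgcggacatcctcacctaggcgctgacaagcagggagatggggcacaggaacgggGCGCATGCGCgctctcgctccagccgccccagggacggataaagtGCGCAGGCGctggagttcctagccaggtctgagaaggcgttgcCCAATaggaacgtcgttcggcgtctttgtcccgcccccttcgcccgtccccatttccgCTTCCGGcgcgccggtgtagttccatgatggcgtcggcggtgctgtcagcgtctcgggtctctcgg

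Complex I, which oxidises NADH, had a median log2 difference of -0.17 at 9 weeks, with 33 of 36 subunits, counted by symbol, below 0. Without overlap 20 lay lower, against 9.34% of all genes. At 3 weeks the median was -0.01. None of its subunits passed the test at either age (limma). At 9 weeks 16 lay lower at an unadjusted p under 0.05, against 6.85% of all genes.

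The smallest p-values in complex I belonged to accessory subunits. Ndufs5, on the intermembrane-space face of the enzyme, stood at 8.44, 8.33 and 8.38 in wildtype livers and at 8.03, 7.98 and 8.07 in Sel1L-deficient livers at 9 weeks. All Sel1L-deficient livers lay below all wildtype livers, by -0.36 ± 0.08 (SE; adjusted p = 0.053, limma), just short of the threshold. At 3 weeks its difference was -0.05.

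Ndufb8 and Ndufb5, accessory subunits of the membrane arm, differed in the same way. Ndufb8 was 7.56, 7.40 and 7.34 in wildtype and 7.07, 7.13 and 6.90 in Sel1L-deficient livers at 9 weeks, a difference of -0.40 ± 0.11 (adjusted p = 0.119, limma). Ndufb5 was 7.59, 7.70 and 7.58 against 7.23, 7.30 and 7.25, a difference of -0.36 ± 0.10 (adjusted p = 0.124). Neither gene overlapped between genotypes at this age, and at 3 weeks the differences were -0.05 and 0.04.

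Core subunits carry the flavin and iron-sulfur centres that conduct electrons. The 6 measured ones had a median of -0.15 at 9 weeks and 0.06 at 3 weeks, and 5 of 6 lay below 0 at 9 weeks. Ndufv2, Ndufs7 and Ndufs3 were lower without overlap, by -0.23, -0.21 and -0.17. Ndufs1 differed by -0.14, Ndufv1, which binds NADH, by -0.06, and Ndufs8 by 0.02, each with overlapping groups.

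Ndufa12, an accessory subunit, was the one member whose groups were apart in the lower direction at both ages. Its wildtype values at 3 weeks were 8.33, 8.47 and 8.33, and the Sel1L-deficient ones 8.04, 8.21, 8.24 and 8.31. At 9 weeks they were 8.59, 8.28 and 8.17 against 7.95, 8.04 and 8.02. The differences of -0.18 ± 0.10 and -0.35 ± 0.11 did not pass (adjusted p = 0.750 and 0.165, limma).

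Ndufa4 carries a complex I name and is now assigned to complex IV, and Ndufa4l2 is its hypoxia-induced relative. By their symbols, both were counted here with complex I and not with complex IV. Ndufa4 was 11.20, 11.18 and 11.14 in wildtype and 11.06, 10.76 and 10.86 in Sel1L-deficient livers at 9 weeks, lower without overlap by -0.28 ± 0.09 (adjusted p = 0.162, limma). Ndufa4l2 lay between 4.04 and 4.95 in all livers, with differences of -0.14 at 3 weeks and -0.01 at 9 weeks.

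The 7 Ndufaf genes encode factors that help to build complex I and are not part of the finished enzyme. Their median at 9 weeks was -0.07. None was apart between genotypes, against 9.34% of all genes lower and 11.4% higher without overlap at 9 weeks. None had an unadjusted p under 0.05 at either age. Ndufaf2 and Ndufaf4 differed by -0.15 each at 9 weeks, Ndufaf7 by 0.02 and Ndufaf1 by 0.09. Ndufaf4 spread from 6.07 to 6.72 within the 3-week Sel1L-deficient group alone.

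Complex II, succinate dehydrogenase, links the citrate cycle to the chain. All 4 genes lay below wildtype at 9 weeks, with a median of -0.22, and the median at 3 weeks was -0.00. None passed the test (limma), and 2 lay lower at an unadjusted p under 0.05 at 9 weeks, against 6.85% of all genes.

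Sdha, the flavoprotein that oxidises succinate, stood at 10.28, 10.26 and 10.39 in wildtype and 10.10, 9.87 and 9.99 in Sel1L-deficient livers at 9 weeks. The groups were apart, by -0.32 ± 0.09 (adjusted p = 0.111, limma). At 3 weeks they were 10.17, 10.02 and 10.10 against 10.05, 9.998, 10.05 and 10.22, and overlapped. Wildtype livers of 9 weeks were all above wildtype livers of 3 weeks, by 0.21 on average. The Sel1L-deficient livers differed by -0.09 between the ages, with overlap.

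Sdhb, the iron-sulfur subunit, differed by -0.12 ± 0.10 at 9 weeks and by 0.17 ± 0.10 at 3 weeks, with overlap at both ages. Sdhc and Sdhd anchor the enzyme in the membrane. Sdhc was 9.44, 9.51 and 9.44 in wildtype and 9.24, 9.21 and 9.21 in Sel1L-deficient livers at 9 weeks, apart by -0.24 ± 0.08 (adjusted p = 0.181, limma). Sdhd was 9.50, 9.43 and 9.50 against 9.54, 9.13 and 9.18, with Sel1L-deficient replicate 1 above all wildtype livers.

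Complex III, which passes electrons from ubiquinol to cytochrome c, had the lowest median of the complexes at 9 weeks, -0.27, but the difference between complexes was not tested. All 7 genes lay below wildtype and 6 were apart, against 9.34% of all genes lower without overlap. The median at 3 weeks was -0.02.

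Uqcrb, a small subunit near the ubiquinone site, fell. Its values at 9 weeks were 10.54, 10.35 and 10.32 in wildtype and 9.98, 10.09 and 9.96 in Sel1L-deficient livers, a 0.761-fold level (-0.39 ± 0.08, SE; adjusted p = 0.044, limma). At 3 weeks they were 10.32, 10.43 and 10.27 against 10.41, 10.30, 10.32 and 10.40, which overlap fully. The Sel1L-deficient livers of 9 weeks thus lay below each of the other 10 livers. With 1 liver left out in turn, Uqcrb was called in 0 of 13 fits (adjusted p between 0.050 and 0.166, limma). Both other features named Uqcrb also read lower at 9 weeks, by -0.41 (adjusted p = 0.032, limma) and -0.36 (adjusted p = 0.055).

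Uqcrc1, a core protein of the matrix side, differed by -0.30 ± 0.09 and Uqcrh, the hinge protein that contacts cytochrome c1, by -0.27 ± 0.08 at 9 weeks (adjusted p = 0.159 and 0.127, limma). Uqcrh was 10.03, 10.03 and 9.996 in wildtype and 9.78, 9.76 and 9.71 in Sel1L-deficient livers. Uqcrfs1, the Rieske iron-sulfur protein, Uqcr10 and Uqcr11 were also apart, by -0.25, -0.23 and -0.40. Uqcrq was the exception, at 9.17, 9.15 and 9.20 against 9.18, 9.02 and 8.97. Cyc1, cytochrome c1 of the same complex, falls outside the symbol rule; it differed by -0.22 ± 0.09 and was apart at 9 weeks (adjusted p = 0.319).

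Complex IV, cytochrome c oxidase, reduces oxygen, and several of its nuclear subunits exist in a common form and a tissue form. The 10 genes that are not tissue forms, called common here, had a median of -0.20 at 9 weeks. Of these, 9 were lower without overlap, against 9.34% of all genes. The 7 tissue forms had a median of -0.03, with 1 lower and 1 higher without overlap. These counts are near the shares of all genes, 9.34% lower and 11.4% higher. At 3 weeks both medians lay between -0.06 and 0.01.

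Cox7b, a small membrane subunit, had the smallest adjusted p of the 88 genes. At 9 weeks it stood at 9.73, 9.63 and 9.58 in wildtype and at 9.28, 9.17 and 9.19 in Sel1L-deficient livers, and it fell to 0.739-fold (-0.44 ± 0.08, SE; adjusted p = 0.029, limma). The 3-week values were 9.72, 9.59 and 9.76 against 9.70, 9.59, 9.72 and 9.79. The Sel1L-deficient livers of 9 weeks lay apart from the other 10 livers, which covered 9.58 to 9.79. With 1 liver left out in turn, Cox7b was called in 8 of 13 fits. The other Cox7b feature differed by -0.38 (adjusted p = 0.116).

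Cox5a, which lies on the matrix side, was 8.83, 8.83 and 8.68 in wildtype and 8.51, 8.48 and 8.42 in Sel1L-deficient livers at 9 weeks, apart by -0.31 ± 0.07 (adjusted p = 0.057, limma). Cox6c, Cox8a, Cox5b, Cox7a2, Cox4i1, Cox6b1 and Cox6a1 were apart too, by values from -0.33 to -0.13. Cox4i1, the common form of the largest nuclear subunit, was 9.26, 9.38 and 9.16 against 9.15, 9.11 and 9.01. The common gene above 0 was Cox7a2l, counted with complex IV by its symbol alone, at 0.16 ± 0.10 with overlap.

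Cox6a2, the heart and skeletal muscle form of subunit VIa, moved the other way. Its values at 9 weeks were 4.58, 4.70 and 4.66 in wildtype and 5.71, 5.69 and 5.16 in Sel1L-deficient livers, and it rose 1.83-fold (0.87 ± 0.17, SE; adjusted p = 0.035, limma). At 3 weeks it was 4.64, 4.58 and 4.38 against 5.00, 4.70, 4.70 and 4.35, with overlap. Each Sel1L-deficient liver of 9 weeks exceeded all other livers, and the call held in 5 of 13 fits with 1 liver left out. The muscle marker list read 2.94 to 3.11 in wildtype and 2.87 to 3.19 in Sel1L-deficient livers at 9 weeks, and none of its 5 genes was called.

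Cox6a1, the liver form of the same subunit, was 10.58, 10.56 and 10.58 in wildtype and 10.31, 10.48 and 10.53 in Sel1L-deficient livers at 9 weeks. At 3 weeks it was 10.55, 10.55 and 10.49 against 10.57, 10.57, 10.74 and 10.81. The groups were apart at both ages, higher in Sel1L-deficient livers at 3 weeks (0.14 ± 0.08) and lower at 9 weeks (-0.13 ± 0.09). Neither difference passed (adjusted p = 0.737 and 0.550, limma), nor did the interaction (-0.28, adjusted p = 0.483).

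Cox7a1, the muscle form of subunit VIIa, had the lowest differences of the 88 genes at both ages. At 9 weeks it was 4.67, 4.59 and 4.50 in wildtype and 3.94, 3.64 and 3.91 in Sel1L-deficient livers, apart by -0.76 ± 0.26 (adjusted p = 0.206, limma). At 3 weeks the wildtype values of 5.39, 5.48 and 4.29 disagreed among themselves, and the Sel1L-deficient ones were 4.26, 4.26, 3.91 and 4.46 (-0.83 ± 0.25, adjusted p = 0.477). Wildtype replicate 3 of 3 weeks stood apart: without it the 9-week difference passed (adjusted p = 0.039, limma), as did the fall from 3 to 9 weeks in wildtype (-0.85, adjusted p = 0.035), and the 3-week difference was -1.21 (adjusted p = 0.090). Values of 3.64 to 3.94 are close to the array medians. Cox7a2, the liver form, differed by -0.19 at 9 weeks, from 8.02, 8.00 and 8.08 to 7.88, 7.80 and 7.86.

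The remaining tissue forms showed overlapping groups at both ages. Cox4i2, the lung form, differed by -0.03 at 9 weeks, Cox6b2 and Cox7b2, found mainly in testis, by 0.00 and -0.10, Cox8b by -0.11 and Cox8c by -0.02. All but Cox6b2 lay below the array medians.

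**Figure D3:**
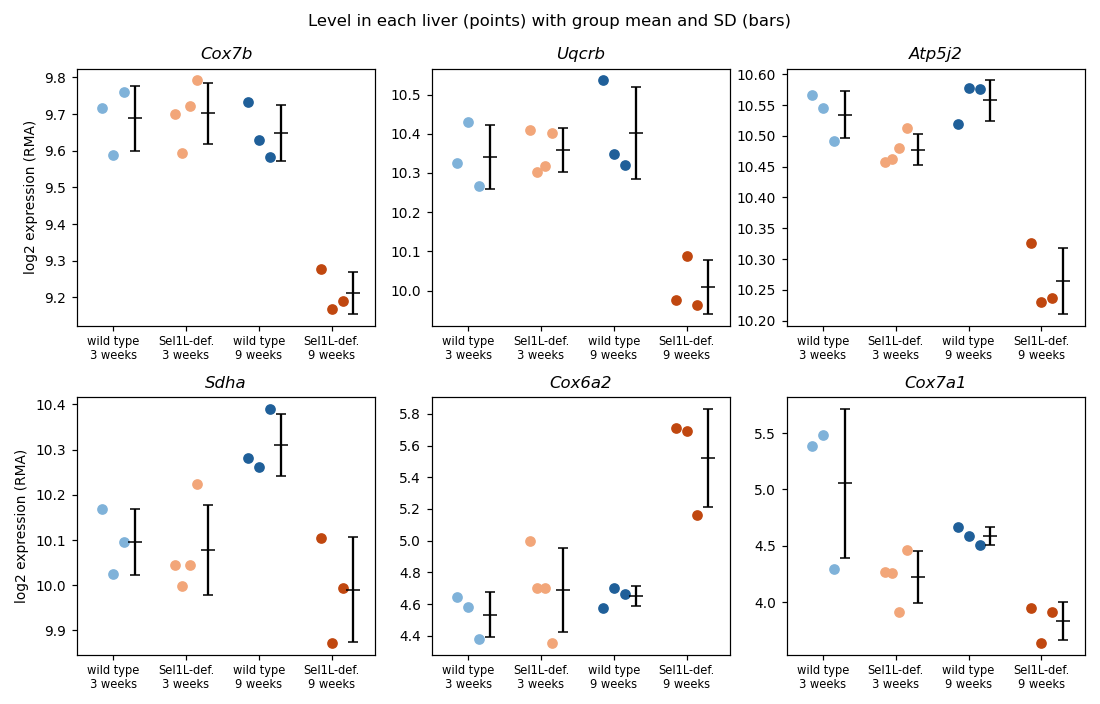
Log2 expression of 6 genes in each liver (points, by group, each panel with its own axis) with the group mean and SD beside them. Cox7b, Uqcrb and Atp5j2 are lower and Cox6a2 higher in the 3 Sel1L-deficient livers of 9 weeks than in the other 10 livers, and Cox7a1 spreads from 4.29 to 5.48 among wildtype livers of 3 weeks.

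Complex V had a median of -0.24 at 9 weeks, with 15 of 17 genes below 0. Without overlap 14 lay lower, against 9.34% of all genes. At 3 weeks the median was -0.04. The F1 head, which makes ATP, and the stalk and membrane parts were alike in this, with medians of -0.25 over 5 genes and -0.24 over 12.

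In the F1 head, Atp5a1 (alpha), Atp5b (beta), Atp5c1 (gamma) and Atp5e (epsilon) were apart at 9 weeks by -0.25, -0.15, -0.25 and -0.32. Atp5b, the catalytic subunit, was 11.33, 11.31 and 11.36 in wildtype and 11.25, 11.10 and 11.18 in Sel1L-deficient livers. Atp5d (delta) was level at 9 weeks, at 0.02 ± 0.07, and at 3 weeks its Sel1L-deficient values of 11.09, 11.13, 11.25 and 11.25 all lay above the wildtype values of 11.09, 11.03 and 11.08 by their unrounded values.

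Atp5j2, subunit f of the membrane part, fell to 0.816-fold at 9 weeks. It stood at 10.52, 10.58 and 10.58 in wildtype and at 10.33, 10.23 and 10.24 in Sel1L-deficient livers (-0.29 ± 0.06, SE; adjusted p = 0.049, limma). At 3 weeks it was 10.57, 10.55 and 10.49 against 10.46, 10.46, 10.48 and 10.51, with overlap. Its SD within groups was between 0.02 and 0.05. With 1 liver left out in turn, it was called in 1 of 13 fits (adjusted p between 0.032 and 0.185, limma).

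Atp5mpl and Atp5md encode small membrane proteins of the synthase. They differed by -0.31 ± 0.08 and -0.30 ± 0.08 at 9 weeks without overlap, short of the threshold (adjusted p = 0.088 and 0.090, limma). In the stalk, Atp5pb (b), Atp5h (d), Atp5o, which joins stalk and head, and Atp5j (F6) were apart by -0.24, -0.23, -0.11 and -0.07. A further feature named Atp5h fell by 0.50 on the log2 scale (adjusted p = 0.042, limma). Atp5k and Atp5l, the e and g subunits at the dimer interface, were apart by -0.39 and -0.25.

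Subunit c forms the rotating ring and is encoded by 3 genes with the same mature protein. Atp5g3 was 10.33, 10.31 and 10.28 in wildtype and 10.18, 10.03 and 10.08 in Sel1L-deficient livers at 9 weeks, apart by -0.21 ± 0.08 (adjusted p = 0.231, limma). Atp5g1 and Atp5g2 overlapped, at -0.06 ± 0.11 and 0.01 ± 0.07. At 3 weeks Atp5g3 was 0.07 higher on average in the Sel1L-deficient livers, with overlap.

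Many of these genes have processed copies elsewhere in the genome, and probes can share signal with them. The 23 genes with several features had 32 further features. All 32 had the same sign at 9 weeks as the feature used, and 28 of the 31 above the median of all values lay below 0.

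From 3 to 9 weeks the wildtype livers had a median difference of -0.03 over these genes, with 54 of 88 below 0, against 48% of all genes. It was -0.07 (62 of 88 below 0) in plate column 5, with 2 livers of 3 weeks and 1 of 9 weeks. In column 7, with 1 and 2 livers, it was 0.04 (24 of 88). The liver of 3 weeks in column 7, replicate 2, had 75 of 88 genes below its group's mean. A column and its few livers cannot be told apart here. None of the 88 genes passed (limma), while 1.43% of all genes were called lower and 0.962% higher. At an unadjusted p under 0.05, 2 members lay lower and 2 higher. The shares of all genes, 8.39% and 6.73%, were larger than the members'. The age groups were apart for 6 genes that lay lower, against 10.6% of all genes, and for 7 that lay higher, against 8.96%. Atp5o had the smallest p, from 9.05, 8.86 and 9.07 to 8.82, 8.76 and 8.75 (-0.22 ± 0.08, adjusted p = 0.212).

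In Sel1L-deficient livers the same interval had a median of -0.21, with 80 of 88 below 0, against 49.1% of all genes. One gene fell, Cox7b (-0.49 ± 0.08, adjusted p = 0.042, limma), 1 of 88 against 0.117% of all genes. At an unadjusted p under 0.05 there were 45 lower, against 5.75%, and 46 were lower without overlap, against 5.29%. This comparison shares its 9-week livers with the genotype comparison, so they are not independent. With 1 liver left out in turn, the Cox7b call held in 2 of 13 fits, those without Sel1L-deficient replicate 2 of 3 weeks or replicate 1 of 9 weeks.

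Arrays from all 4 groups were spread over plate columns 5 and 7, named in the array descriptions. At 9 weeks the median genotype difference over the members was -0.16 in column 5 (1 wildtype, 2 Sel1L-deficient livers; 74 of 88 below 0) and -0.20 in column 7 (2 and 1; 81 of 88). At 3 weeks it was -0.03 in column 5 (2 wildtype, 2 Sel1L-deficient livers) and 0.06 in column 7 (1 and 2). Cox7b, Uqcrb, Atp5j2 and Cox6a2 kept their sign in both columns at 9 weeks, at -0.40 and -0.49, -0.38 and -0.34, -0.30 and -0.32, and 0.73 and 1.07.

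Markers of liver cell types were set beside this. None of the genes on the 10 marker lists was called at 9 weeks (limma), against 0.67% of all genes lower and 1.37% higher. At most 2 of a list lay lower at an unadjusted p under 0.05, against 6.85% of all genes. The hepatocyte list had a median of -0.11 with 6 of 8 genes below 0, and its mean level of 12.46 to 12.57 in wildtype overlapped that of 12.37 to 12.51 in Sel1L-deficient livers. Kupffer cell, sinusoidal endothelial and stellate cell lists had medians of 0.07, 0.00 and 0.12, and bile duct and monocyte and neutrophil lists -0.18 and -0.22. The Kupffer cell list spread from 6.89 to 8.01 among Sel1L-deficient livers of 9 weeks. Erythroid markers were below 0 for 5 of 5 genes, with mean levels of 4.10 to 4.38 in wildtype and 3.76 to 4.04 in Sel1L-deficient livers, which do not overlap. Lymphocyte markers were below 0 for 6 of 7 genes, at 3.49 to 3.93 against 3.28 to 3.56. At 3 weeks, where the members' median was near 0, the Kupffer cell list had a median of -0.36 (10 of 10 genes below 0), the stellate cell list -0.25 (8 of 8), the sinusoidal endothelial list -0.22 (6 of 8) and the erythroid list -0.41 (5 of 5). The part of these cell types in the differences was not tested.

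Next, 6 other lists of mitochondrial genes were set beside the members, with no test between lists. Of all genes, 0.67% were called lower and 1.37% higher at 9 weeks. At an unadjusted p under 0.05 (limma) these shares were 6.85% and 8.91%. Of 16 measured genes for electron carriers and coenzyme Q synthesis, 0 were called at 9 weeks (limma; 1 lower and 2 higher at an unadjusted p under 0.05) and the median was -0.00. Of 39 other assembly factors of the 5 complexes, 0 were called (0 lower and 1 higher unadjusted) and 15 lay below 0, with a median of 0.06. Their mean level in wildtype livers of 9 weeks was 6.35, while 69 of the 88 members had a mean above 7. Surf1, a complex IV assembly factor, had the smallest p, at 0.25 ± 0.08 (adjusted p = 0.152).

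Citrate cycle enzymes had a median of -0.02 over 16 genes. Of these 2 rose and 0 fell, against 1.37% of all genes called higher and 0.67% lower. Mdh2, mitochondrial malate dehydrogenase, rose by 0.51 ± 0.09 (adjusted p = 0.027, limma) and Idh2, the NADP-dependent isocitrate dehydrogenase, by 0.46 ± 0.09 (adjusted p = 0.038). Pcx, pyruvate carboxylase, differed by -0.45 ± 0.12 (adjusted p = 0.087). Carriers of the inner membrane had a median of -0.01 over 12 genes, 0 called (2 lower unadjusted).

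The stress response and quality control list had a median of 0.17 over 15 genes at 9 weeks, with 3 below 0. Of the 15 genes, 1 was called higher, against 1.37% of all genes. At 3 weeks the list's median was 0.14, with 4 of 15 below 0 and 0 called. Its mean level at 3 weeks was 8.34 to 8.41 in wildtype and 8.43 to 8.59 in Sel1L-deficient livers, without overlap. At 9 weeks these ranges were 8.245 to 8.48 and 8.38 to 8.65, which overlap. Lonp1, the protease of the mitochondrial matrix, stood at 7.71, 7.82 and 7.97 in wildtype and 8.37, 8.92 and 8.98 in Sel1L-deficient livers at 9 weeks, and rose (0.92 ± 0.15, SE; adjusted p = 0.021, limma). Hspa9, the matrix Hsp70 chaperone, and Pink1, a kinase of damaged mitochondria, differed by 0.42 and 0.47 without overlap (adjusted p = 0.056 and 0.064, limma). Of all genes, 11.4% were higher without overlap. These lists were chosen with earlier results of the data known.

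Regulators of respiratory gene transcription had a median of 0.04 over 14 genes, 0 called (1 lower and 2 higher unadjusted). Their mean level in wildtype livers of 9 weeks was 6.115. Twnk, the mitochondrial DNA helicase, differed by 0.54 ± 0.14 (adjusted p = 0.092, limma), and Tfb2m, a mitochondrial transcription factor, by 0.47. The PGC-1 coactivators of respiratory genes did not share a sign. Ppargc1a differed by 0.63 and Pprc1 by 0.42, both higher without overlap, as were 11.4% of all genes. Ppargc1b differed by -0.53 with overlap. Gabpa, an ETS factor, differed by 0.22, Nrf1 by 0.06 and Tfam by -0.02, and none of these genes passed.

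**Figure D4:**
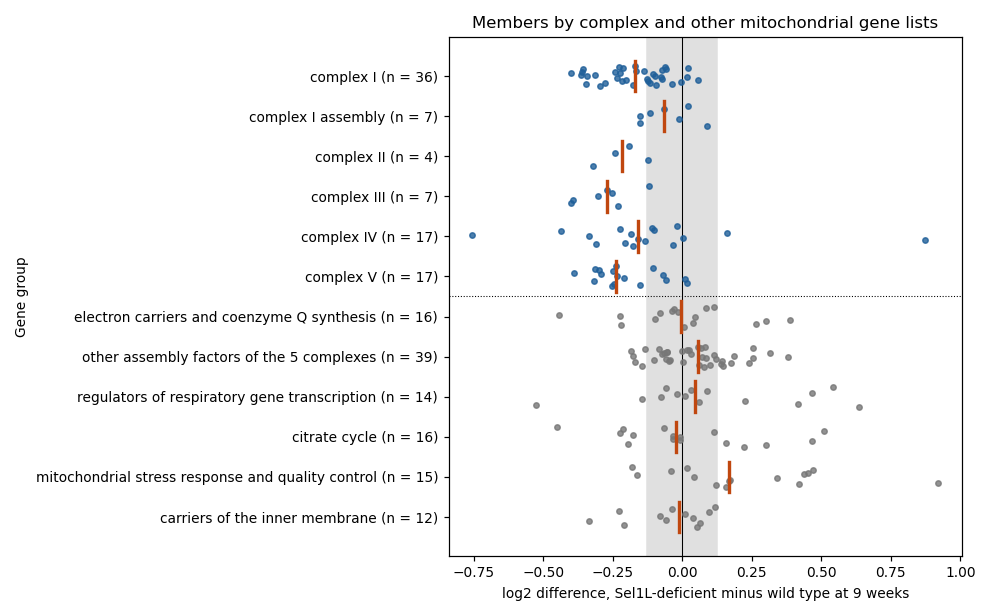
Log2 difference at 9 weeks for the members by complex (blue points, above the dotted line) and for 6 other lists of mitochondrial genes (grey points), with each group's median as a bar and the interquartile range of all genes shaded. The medians of complexes I to V lie below -0.15, and that of the complex I assembly factors is -0.07. Those of the other 6 lists lie between -0.02 and 0.17.

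Over the 13 livers, the non-member genes whose values ran most closely with the mean of the scaled members were Clybl (r = 0.945), Mrps9 (r = 0.940), Slc23a1 (r = 0.914), Timd2 (r = 0.910) and Nit2 (r = 0.905). Clybl is a mitochondrial enzyme, Mrps9 a protein of the mitochondrial ribosome, Slc23a1 a vitamin C transporter and Nit2 an amidase. After removal of group means, r was 0.896, 0.837, 0.694, 0.735 and 0.734. These values describe likeness on arrays that share groups and processing.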

How the data were processed

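Liver RNA of 13 mice was hybridised to Affymetrix whole-transcript arrays. The deposited values are log2 expression, made by the authors with RMA per the submitters' processing notes; its version and probe set definition are not given in the sources used here. Groups and replicate numbers came from sample titles, and mice are separate per the labels. Both 9-week arrays titled replicate 3 carry another number in their descriptions.

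Features were named from the platform annotation (21218 with 1 symbol, 1881 with several, 12457 unlisted); 9 features with several symbols that matched the rule were not used. The fit used limma 3.58.1 in R 4.3.3 (1 mean for each group, all 13 livers in one lmFit and eBayes, two-sided), with Benjamini-Hochberg adjustment over 35556 features, and a call needed an adjusted p under 0.05. The 5 contrasts were genotype at each age, the interaction and age in each genotype. Precision is limited by the few arrays per group. The script was tested on simulated data.

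Shares of all genes count 1 feature per gene. Genes named with values were those called, all Sdh genes, those with the smallest p per complex, tissue forms with their common counterparts and the subunit c genes; further values are given to complete a complex. Members, lists and naming rule were chosen with earlier results of these data known. Deviations of same-numbered livers of different groups were weakly correlated (18 correlations, -0.01 to 0.08, median 0.03). Those of other-numbered livers ran from -0.09 to 0.06 (45 correlations, median -0.01). The labels do not say that a number is shared between groups, so numbers were not used as pairs. Alternatives covered filters, scalings, blocks, the variance model, the livers and features used and each liver left out.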

Additional observations from a re-analysis of the deposited data

Results flagged for a closer look

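In the Sel1L-deficient group at 3 weeks, Atp5o of replicate 3 stood at 8.857, apart from the other 3 livers, which reached up to 8.968. In the same group, replicate 4 had a median deviation over complex V of 0.1651 from the genes' means over all livers, while the lowest liver was at 0.01. These were 2 of 52 series of 4 livers looked at, and chance gives about 1 in 20.

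Cox6a1 and Atp5g3 lay on opposite sides of wildtype at the 2 ages, with differences of 0.14 and 0.07 at 3 weeks and of -0.13 and -0.21 at 9 weeks. The change between ages was -0.2774 for Cox6a1 (adjusted p = 0.483, limma interaction) and -0.2773 for Atp5g3 (adjusted p = 0.440), which does not pass. Both genes were flagged because every Sel1L-deficient liver lay above the wildtype mean at 3 weeks and below it at 9 weeks. This pattern is therefore not separate evidence. Cox6a1 and Atp5g3 were 2 of 45 named genes checked for opposite signs, and the share of all genes with this pattern was not counted. At 9 weeks, 78 of the 88 genes lay below wildtype.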

How the results depend on the processing

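The median genotype difference at 9 weeks stayed between -0.21 and -0.18 under 10 alternatives, and between -0.19 and -0.18 with each liver left out. The count of members called did not. From 4 at 9 weeks it went to 2 with plate column as a block, 7 with an intensity trend and robust variance, 0 with only the groups compared, 26 of 69 with features above a mean of 7 (chosen after seeing the data), and 0 to 4 with 1 liver left out. For Sel1L-deficient livers with age, the count of 1 became 2 with features above the median mean or with 1 symbol, 0 with arrays centred, with plate column as a block or with only the groups compared, 16 with features above a mean of 7, and 0 to 2 with 1 liver left out. For wildtype livers with age it was 0 to 1 with 1 liver left out. The replicate block pairs livers by a number that the labels do not say is shared. With it the counts were 1 at 9 weeks and 0 for Sel1L-deficient livers with age. The cause was not tested. No called value changed sign. Values near 0 did: with 1 liver left out, the median genotype difference at 3 weeks ran from -0.05 to 0.03, the wildtype age median from -0.06 to 0.01 and the Cox7a1 interaction from -0.14 to 0.45. With each array centred or quantile-normalized, 81 and 82 of 88 members lay lower at 9 weeks, against 78. The 3-week and interaction counts were 0 throughout.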
